A study of Mus musculus with 6 samples.

Results

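The contractile genes of smooth muscle were followed as 10 genes chosen by name, Acta2, Actg2, Cnn1, Tagln, Myh11, Myl9, Lmod1, Des, Mylk and Smtn. The choice was made with earlier results of these data known. All 10 were present among the 18238 genes of the deposited tables, and all 10 passed the filter on low counts. The study sequenced the RNA of 6 mice carrying lung cancer. In the text, artemisinin replicates 1 to 3 are the 3 mice given artemisinin, a plant-derived antimalarial compound, and model replicates 1 to 3 are the 3 mice labelled only as the disease model. Both groups carried the lung cancer label, and the comparison asked which genes differ in expression under the drug. The sources used here do not give the way the cancer was induced, the strain, age or genotype, the sampled tissue, the dose or the length of treatment.

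Smooth muscle shortens when calcium, bound to calmodulin, activates myosin light chain kinase. The kinase phosphorylates the regulatory light chain of smooth muscle myosin, which then pulls on filaments of smooth muscle actin. Calponin, transgelin, leiomodin and smoothelin bind these actin filaments, and desmin filaments tie the contractile apparatus to the rest of the cell. In the lung such cells wrap the airways and the blood vessels. Many of their contractile genes are switched on by serum response factor (SRF) and its partner myocardin, which act through a promoter element called the CArG box.

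The promoter sequences are shown because the CArG box is the element through which SRF acts on genes of this kind. RefSeq promoter windows of GRCm38.p6, 250 bases before to 50 bases after 1 annotated start, matched 7 of the 10 genes: Acta2, Cnn1, Des, Lmod1, Myl9, Mylk and Smtn. That start was the outermost end of the gene, as its coordinates are given below, for Des, Lmod1 and Smtn. It lay inside the gene by 32 bases for Cnn1, 56 for Myl9, 212 for Acta2 and 39751 for Mylk. A full CArG box was found in 1 of these 7 windows, that of Myl9, and in 1.63% of all 32817 windows. Allowing 1 mismatch in the central A and T bases, a box was found in 2 of the 7, Acta2 and Myl9, and in 9.99% of all windows. The element reads the same on both strands, so a scan of the window covered both. The stretches around each match follow, 5′ to 3′ on the strand of the gene, with the box in capitals and distances counted from the start of the window's own annotation, at 156775464 for Myl9 and 34255373 for Acta2.
Myl9, full box 161 bases before that start, plus strand, chr2:156775283-156775332: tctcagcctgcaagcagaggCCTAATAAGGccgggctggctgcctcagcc
Myl9, box with 1 mismatch 99 bases before that start, plus strand, chr2:156775345-156775394: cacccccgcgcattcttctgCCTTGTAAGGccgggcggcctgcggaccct
Acta2, box with 1 mismatch 84 bases before that start, minus strand, chr19:34255428-34255477: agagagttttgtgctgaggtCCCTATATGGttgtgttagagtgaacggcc
Acta2, box with 1 mismatch 34 bases before that start, minus strand, chr19:34255378-34255427: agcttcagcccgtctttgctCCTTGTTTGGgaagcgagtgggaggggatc
Counted from the outermost gene start, the Myl9 boxes begin 105 and 43 bases before it, and the Acta2 boxes begin 128 and 178 bases inside the gene. These matches describe the letters of the windows, and the libraries hold no measurement of binding.

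The libraries held 25566173 to 33126585 counts in the artemisinin mice and 32964061 to 34745497 in the model mice. All 8 lung epithelium markers, among them the surfactant gene Sftpc and the club cell gene Scgb1a1, were present in every library. Sftpc stood at 2974 to 11115 normalised CPM in artemisinin mice and at 21494 to 35144 in model mice. Normalised CPM are counts scaled by the TMM factor and by the library's counts in genes that passed the filter on low counts. Artemisinin replicate 2 stood apart through skeletal muscle transcripts, with Acta1, the skeletal actin gene, at 2677 normalised CPM and at most 0.92 in the other 5 libraries. Artemisinin replicate 1 stood apart through the atrial hormone gene Nppa, at 164 normalised CPM against at most 2.13 elsewhere. Nothing in the labels said how the mice were housed or sampled, so the p-values measure the spread between these 6 libraries. In bulk tissue, fewer cells of a type and less RNA per cell cannot be told apart.

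Of the 10 contractile genes 9 rose with artemisinin, by between 1.75-fold (Smtn) and 8.91-fold (Actg2), and none fell. Mylk stood 1.25-fold higher and did not pass the test. The threshold was a Benjamini-Hochberg adjusted p of 0.05 over the 15242 genes that edgeR tested by quasi-likelihood. Of all these genes 2.17% were called higher, 2.30% lower and 4.47% in either direction. Because the 10 genes were chosen with earlier results known, these shares serve as description only. In all 10 genes the 3 artemisinin values lay above the 3 model values, which held for 16.3% of all genes tested. The median log2 fold change of the 10 genes was 1.99, beside 0.04 over all genes tested. Summed over the 10 genes, expression reached 2512, 2520 and 1645 normalised CPM in artemisinin replicates 1 to 3, against 618, 815 and 799 in model replicates 1 to 3.

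**Figure D1:**
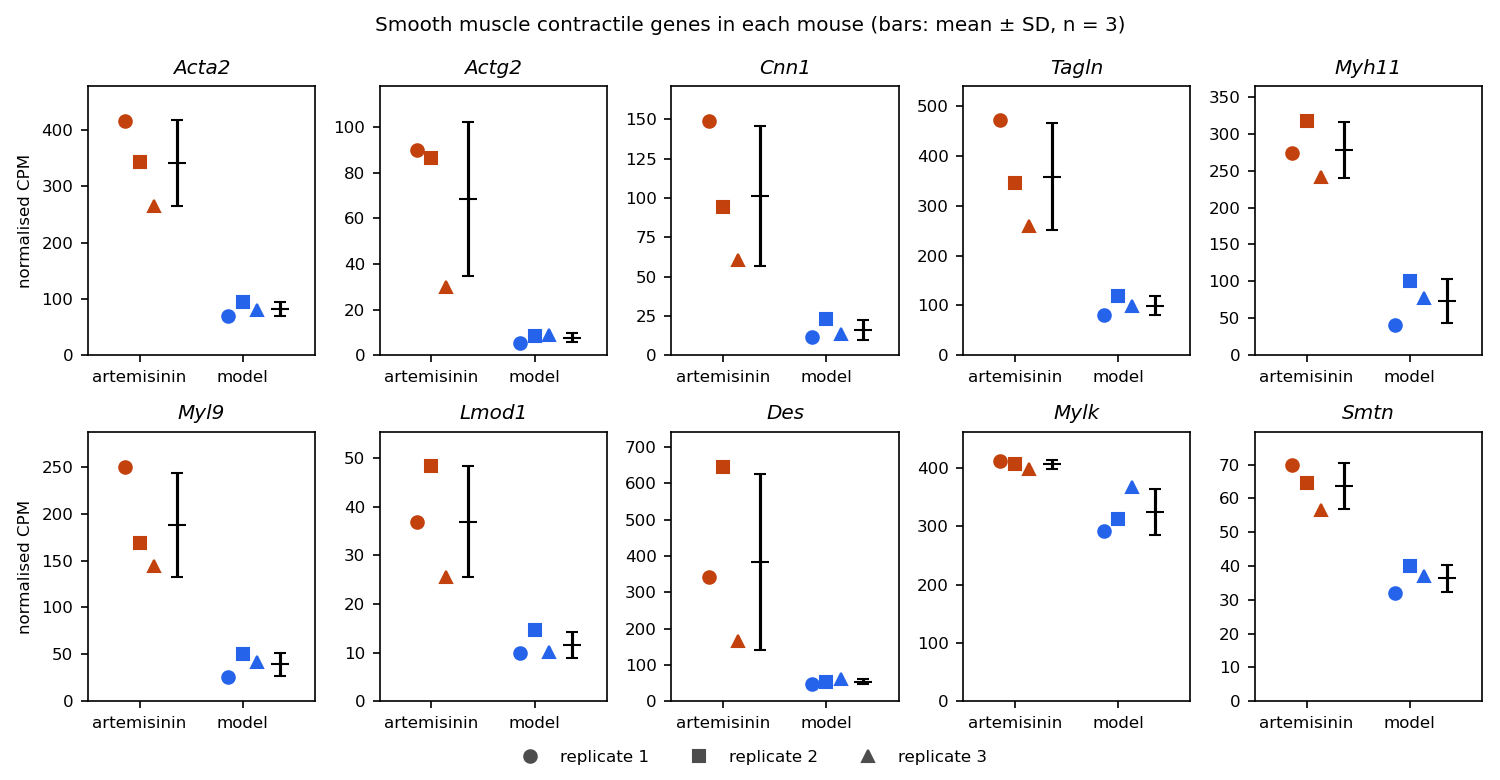
Normalised CPM (vertical axis, linear from 0) of the 10 contractile genes in each of the 3 artemisinin and 3 model mice, with symbols for the replicate number and bars for mean ± SD. Artemisinin values lie above model values in every panel, by a wide margin for Acta2 (264 to 416 against 70.4 to 94.8) and a narrow one for Mylk (398 to 412 against 292 to 368).

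The actin genes form the thin filament. Acta2 (chromosome 19, 34240336 to 34255585, GRCm38) encodes smooth muscle alpha actin, the main actin of vascular smooth muscle, and stood at 416, 343 and 264 normalised CPM in artemisinin replicates 1 to 3. In model replicates 1 to 3 it stood at 70.4, 94.8 and 80.3. The lowest artemisinin library was 2.79 times the highest model library. The rise was 4.17-fold (log2 2.06 ± 0.22, SE; edgeR adjusted p = 0.00984), and by its p Acta2 ranked 35 among the 15242 genes. Actg2 (chromosome 6, 83512909 to 83536251) encodes gamma 2 actin, the actin typical of gut and other visceral smooth muscle. It had 89.9, 86.45 and 29.7 normalised CPM in artemisinin mice and 5.56, 8.68 and 8.89 in model mice. Replicates 1 and 2 of the artemisinin group were alike and replicate 3 stood well below them, at 3.35 times the highest model value. Its rise of 8.91-fold (log2 3.16 ± 0.44, SE; edgeR adjusted p = 0.0182) was the largest of the 10. Within a library, the FPKM of Actg2 over that of Acta2 was 0.466, 0.543 and 0.242 in artemisinin mice and 0.170, 0.197 and 0.239 in model mice. The groups did not overlap in this ratio, but artemisinin replicate 3 lay next to model replicate 3.

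Calponin and transgelin bind actin filaments, and calponin 1 damps the activity of myosin on them. Cnn1, the calponin 1 gene (chromosome 9, 22099221 to 22109221), had 149, 94.4 and 60.5 normalised CPM in artemisinin mice and 11.4, 23.3 and 13.6 in model mice. Model replicate 2 was the highest of its group, at 2.60-fold below the lowest artemisinin value. Cnn1 rose 6.28-fold (log2 2.65 ± 0.40, SE; edgeR adjusted p = 0.0213). Tagln, which encodes transgelin or SM22 alpha (chromosome 9, 45929628 to 45936058), was the most abundant of the 10 per length in both groups. It had 472, 345 and 260 normalised CPM in artemisinin mice and 81.5, 119 and 99.4 in model mice, and rose 3.59-fold (edgeR adjusted p = 0.0184). The FPKM ratio of Cnn1 to Tagln averaged 0.267 ± 0.040 in artemisinin mice and 0.154 ± 0.032 in model mice (SD, n = 3 each), without overlap. The exons of Tagln share 1349 of 1988 bases with genes on the opposite strand, among them Pcsk7, a proprotein convertase gene. The strand setting of the counting was not given, so part of the Tagln counts could come from Pcsk7. Pcsk7 stood at 53.2 to 66.1 normalised CPM in artemisinin mice and at 54.9 to 61.8 in model mice (log2 −0.0060 ± 0.14, SE; edgeR adjusted p = 0.982).

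Smooth muscle myosin is built from the heavy chain Myh11 and light chains such as Myl9. Myh11 (chromosome 16, 14194527 to 14292188), a marker of mature smooth muscle, had 274, 318 and 242 normalised CPM in artemisinin mice. In model mice it had 41.6, 101 and 77.6, the widest model spread of the 10 genes relative to its mean. It rose 3.79-fold (log2 1.92 ± 0.32, SE; edgeR adjusted p = 0.0256). Myl9, the regulatory light chain that the kinase phosphorylates (chromosome 2, 156775408 to 156781657), had 250, 169 and 144 normalised CPM in artemisinin mice and 26.1, 50.1 and 42.1 in model mice. It rose 4.76-fold (edgeR adjusted p = 0.0170), and its promoter window is the one with the full CArG box shown above. The FPKM ratio of Myh11 to Myl9 overlapped between the groups, at 0.172 to 0.295 in artemisinin mice and 0.250 to 0.315 in model mice. Artemisinin replicate 1, at 0.172, had the least heavy chain per light chain.

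Mylk, the myosin light chain kinase gene (chromosome 16, 34745199 to 35002436), was the exception. It had 412, 407 and 398 normalised CPM in artemisinin mice and 292, 312 and 368 in model mice. Its log2 fold change was 0.33 ± 0.16 (SE; edgeR adjusted p = 0.251), and it was not called under any of the 16 other settings or subsets run. The locus makes several products, among them a long kinase of non-muscle cells, a shorter smooth muscle kinase and the kinase-free telokin, and gene counts do not separate them. In FPKM, Mylk over Myh11 was 1.33, 1.13 and 1.45 in artemisinin mice and 6.20, 2.74 and 4.19 in model mice, so the kinase gene exceeded the myosin gene in every library and by more in the model. Exons of Mylk share 772 of 11263 bases with genes on the opposite strand.

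Leiomodin, smoothelin and desmin complete the set. Lmod1, which encodes the smooth muscle actin nucleator leiomodin 1 (chromosome 1, 135324813 to 135368065), had 36.9, 48.4 and 25.5 normalised CPM in artemisinin mice and 9.99, 14.5 and 10.1 in model mice. It rose 3.20-fold (log2 1.68 ± 0.28, SE; edgeR adjusted p = 0.0256). Smtn, the smoothelin gene (chromosome 11, 3517522 to 3539292), had 70.0, 64.7 and 56.5 normalised CPM in artemisinin mice and 32.0, 39.9 and 37.2 in model mice. The artemisinin libraries varied little, and its rise of 1.75-fold (log2 0.81 ± 0.15, SE; edgeR adjusted p = 0.0312) was the smallest that passed the test. Exons of Smtn share 714 of 4380 bases with genes on the opposite strand.

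Des encodes desmin, the intermediate filament protein of smooth, cardiac and skeletal muscle (chromosome 1, 75360292 to 75368579). It had 343, 644 and 165 normalised CPM in artemisinin mice and 47.6, 52.6 and 61.6 in model mice, and rose 7.12-fold (log2 2.83 ± 0.47, SE; edgeR adjusted p = 0.0252). The highest value belonged to artemisinin replicate 2, the library with skeletal muscle transcripts. Without that library Des still rose, with a log2 fold change of 2.23 (edgeR adjusted p = 0.0143). The part of skeletal muscle RNA in the Des level of that library was not tested.

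**Figure D2:**
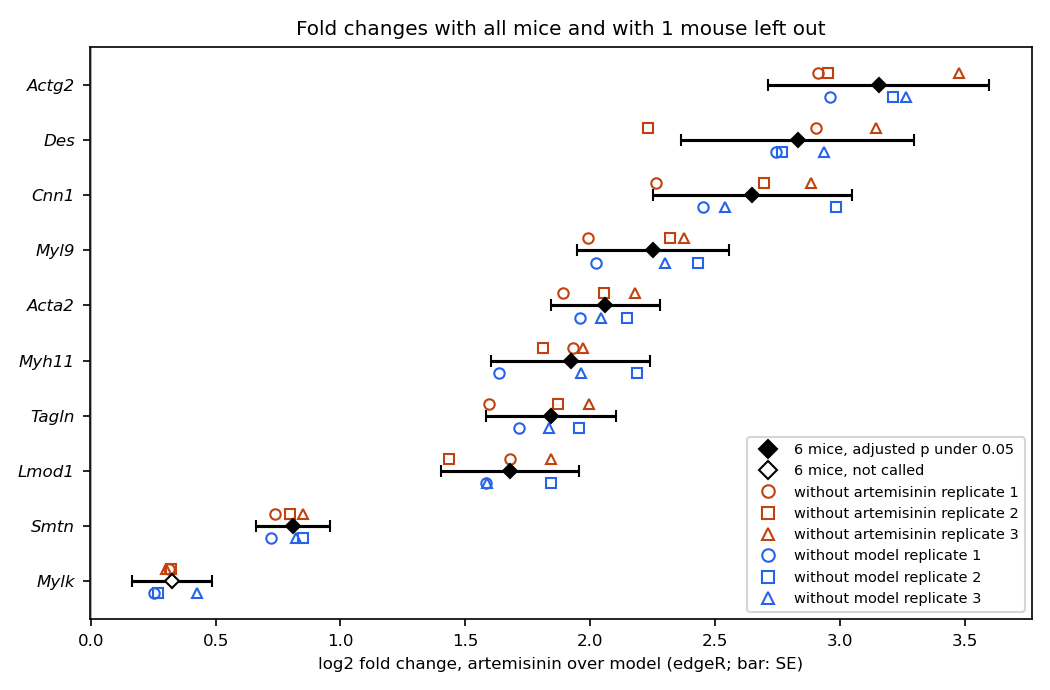
Log2 fold change of artemisinin over model (horizontal axis) for each contractile gene, with diamonds for all 6 mice and SE bars, and open symbols for the fits with 1 mouse left out. Every estimate is above 0, from 0.25 for Mylk without model replicate 1 to 3.48 for Actg2 without artemisinin replicate 3.

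Since the groups did not overlap in any of the 10 genes, leaving out 1 mouse could hardly turn a direction. The direction held for all 10 genes with any 1 mouse left out, but the calls did not. Without artemisinin replicate 2 or 3 edgeR called 9 of the 10 genes higher. Without artemisinin replicate 1 it called 4, Acta2, Cnn1, Myl9 and Tagln, and without model replicate 2 it called 4, Acta2, Cnn1, Myh11 and Myl9. Without model replicate 1 or 3 it called 0 of the 10, while 9 of 10 had an unadjusted p under 0.05 in each. The share of all genes tested with an unadjusted p under 0.05 was 14.9% without model replicate 1, 15.4% without model replicate 3 and 24.7% with all 6 mice. In the 2 fits with no call among the 10, 17 and 23 genes of the whole table were called. Without artemisinin replicate 1, 2 or 3 the whole table had 309, 1383 and 494 calls, and without model replicate 2 it had 118. With all 6 mice it had 682. The median of the 10 genes lay between 1.84 and 2.17 on the log2 scale over the 6 fits.

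The libraries kept nearly the same rank from gene to gene. Artemisinin replicate 3 was the lowest artemisinin library for 10 of 10 genes, and model replicate 1 the lowest model library for 10 of 10. Artemisinin replicate 1 was the highest of its group for 7 genes and replicate 2 for the other 3, Myh11, Lmod1 and Des. On a log2 scale with the mean of the model mice at 0, the median gene stood at 2.30, 2.10 and 1.66 in artemisinin replicates 1 to 3 and at −0.24, 0.24 and 0.09 in model replicates 1 to 3. In artemisinin replicate 3 the single genes ran from 0.30 for Mylk to 1.94 for Cnn1. That library had 11.97 normalised CPM of summed skeletal muscle markers, against 4.54 to 5.37 in model mice. Its summed cardiac muscle markers reached 350, against 127 to 175 in model mice.

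Levels of different genes were compared in FPKM, which divide by gene length. In artemisinin mice the order was Tagln (234 ± 73.0 FPKM, SD, n = 3), Myl9 (166 ± 52.0), Des (128 ± 75.9), Acta2 (125 ± 28.8), Cnn1 (64.5 ± 29.5), Actg2 (53.7 ± 26.1), Mylk (49.4 ± 1.98), Myh11 (38.1 ± 3.96), Smtn (11.1 ± 1.25) and Lmod1 (9.62 ± 2.67). Neighbours with no overlap in this order were Acta2 and Cnn1, Mylk and Myh11, and Myh11 and Smtn. In model mice the order was Tagln (60.8 ± 12.5 FPKM), Mylk (36.7 ± 4.53), Myl9 (32.4 ± 10.5), Acta2 (27.9 ± 4.70), Des (16.9 ± 2.28), Cnn1 (9.60 ± 3.95), Myh11 (9.45 ± 3.98), Smtn (5.90 ± 0.75), Actg2 (5.66 ± 1.43) and Lmod1 (2.82 ± 0.69). There the neighbours with no overlap were Tagln and Mylk, Acta2 and Des, Des and Cnn1, and Actg2 and Lmod1. Mylk stood at place 7 in artemisinin mice and at place 2 in model mice.

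Most contractile genes have cytoplasmic relatives that non-muscle cells use for shape and movement. Of 13 such genes edgeR called 0, with 2 at an unadjusted p under 0.05, limma-voom called 0, and DESeq2 called 2, Actb higher and Tpm3 lower. Of all 15242 genes tested 24.7% had an unadjusted p under 0.05 in edgeR, and DESeq2 called 2286. The median log2 fold change of the 13 genes was −0.10. Actb, the beta actin gene, averaged 2939 ± 797 normalised CPM in artemisinin mice and 1617 ± 176 in model mice (SD, n = 3 each; log2 0.86 ± 0.26, SE; edgeR adjusted p = 0.108). Tpm3, a cytoplasmic tropomyosin gene, averaged 201 ± 78.7 in artemisinin mice and 451 ± 104 in model mice (log2 −1.17 ± 0.31, SE; edgeR adjusted p = 0.0818). The gamma actin gene Actg1 had a log2 fold change of −0.26, the calponins Cnn2 and Cnn3 had 0.20 and −0.10, and transgelin 2 (Tagln2) had −0.28. The non-muscle myosin heavy chains Myh9, Myh10 and Myh14 had −0.15, 0.53 and −0.15, and the light chains Myl12a and Myl12b had −0.25 and 0.10. Tpm4 had 0.08 and Vim, the vimentin gene, 0.39. The edgeR adjusted p of these 11 genes lay between 0.292 and 0.798, and the Cnn3 value was 0.00094 with scaling by library totals.

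For 6 of the 10 genes, Acta2, Myh11, Tagln, Cnn1, Myl9 and Des, the level was set against cytoplasmic relatives in the same library. All 10 ratios taken for them were higher in artemisinin mice without overlap. The 6 genes were already higher without overlap on their own, so the ratios largely restate their rises. The FPKM ratio of Acta2 to Actb was 0.073, 0.098 and 0.069 in artemisinin mice and 0.028, 0.045 and 0.032 in model mice. For Myh11 over Myh9 it was 0.713, 0.383 and 0.273 in artemisinin mice and 0.062, 0.137 and 0.085 in model mice. Myh11 exceeded Myh10 in artemisinin replicates 1 and 2 (1.60 and 1.27) but not in replicate 3 (0.716), and stood at 0.329 to 0.525 in model mice. For Tagln over Tagln2 the ratio was 0.423 to 1.08 in artemisinin mice and 0.113 to 0.177 in model mice, and for Des over Vim it was 0.089 to 0.341 in artemisinin mice and 0.038 to 0.044 in model mice. With 3 mice a group an exact permutation test of such a ratio cannot go below p = 0.1, so none is given. The longest coding transcripts of the 10 genes share no run of 100 bases with another gene in GENCODE M21. Runs of 50 bases were shared by 0.352% of those of Acta2, with Actg1 and actin pseudogenes, and by 0.40% of those of Myh11, with Myh9 and Myh10.

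**Figure D3:**
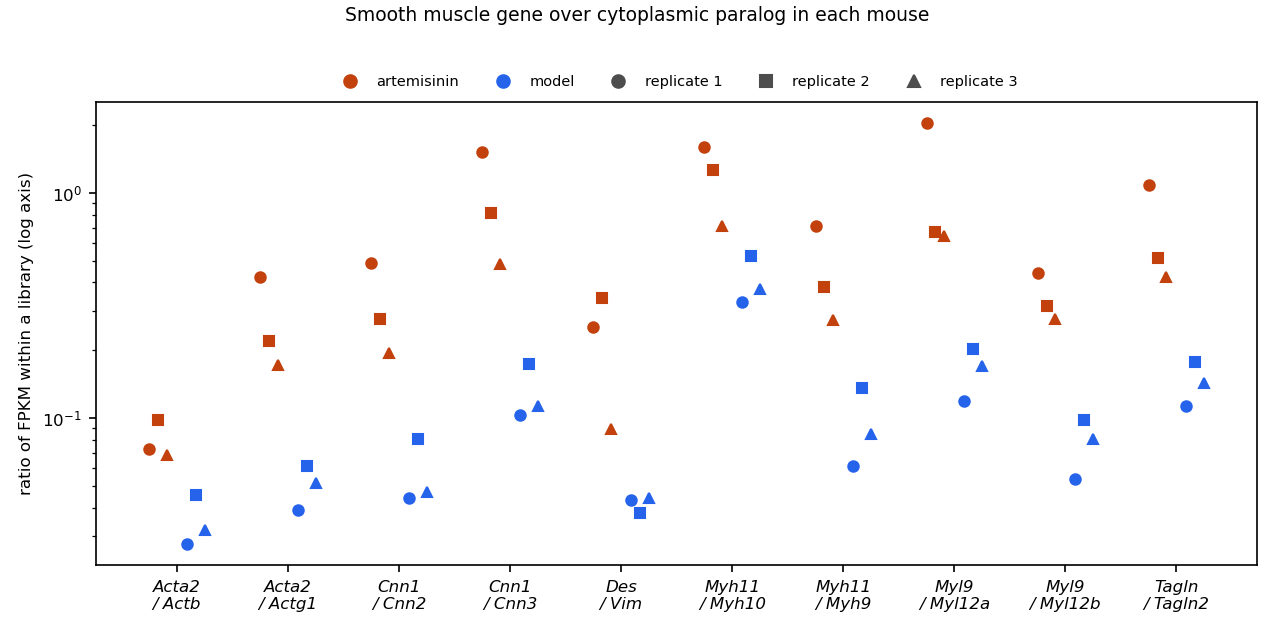
Ratio of FPKM of a smooth muscle gene to that of a cytoplasmic relative (log axis) in each library, artemisinin in orange and model in blue, with symbols for the replicate number. The groups do not overlap in any of the 10 pairs, and the gap is narrowest for Myh11 over Myh10 (0.716 in artemisinin replicate 3 against 0.525 in model replicate 2).

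Of 22 further genes of the contractile apparatus 3 rose and 0 fell, beside 2.17% and 2.30% of all genes tested. Their median log2 fold change was 0.57. Pdlim7, a scaffold protein gene of actin filaments, averaged 48.3 ± 6.38 normalised CPM in artemisinin mice and 24.9 ± 0.334 in model mice (SD, n = 3 each; log2 0.96 ± 0.14, SE; edgeR adjusted p = 0.0213). Synpo2, the synaptopodin 2 gene, rose 3.30-fold (edgeR adjusted p = 0.0285). Tpm2, which encodes beta tropomyosin of smooth and skeletal muscle, had 176, 696 and 80.3 normalised CPM in artemisinin mice and 18.7, 35.3 and 25.1 in model mice (log2 3.59 ± 0.78, SE; edgeR adjusted p = 0.0497). Its highest value again came from artemisinin replicate 2, and without that library the log2 fold change was 2.28 (edgeR adjusted p = 0.0219). With all 6 mice the Tpm2 call was lost with limma-voom (adjusted p = 0.0603), with edgeR without the filter on low counts (0.0966) and in the 3 limma fits on FPKM (0.0541 to 0.0871). Without artemisinin replicate 1 only Pdlim7 was called among the 22, without artemisinin replicate 3 the call was made for 8, and without any 1 model replicate for 0, with 10 to 12 at an unadjusted p under 0.05. Of the 22 genes 19 had a log2 fold change above 0, beside 53.2% of all genes tested. With all 6 mice 11 had an unadjusted p under 0.05, beside 24.7% of all genes. Without overlap 12 were higher and 0 lower, beside 16.3% and 17.3% of all genes. Among genes not called, Ldb3, Sgca, Pdlim3 and Flna had log2 fold changes of 4.27, 3.31, 2.49 and 0.67, each highest in artemisinin replicate 2. Cald1, Vcl and Tns1, which encode caldesmon, vinculin and tensin 1, had −0.26, 0.05 and −0.02 and were not called.

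Among 24 genes of calcium handling, receptors and signalling 3 rose and 0 fell, beside 2.17% and 2.30% of all genes tested. Their median log2 fold change was 0.22. Kcnmb1, the beta 1 subunit of the calcium-activated potassium channel of smooth muscle, averaged 10.4 ± 2.57 normalised CPM in artemisinin mice and 3.74 ± 0.379 in model mice (SD, n = 3 each; log2 1.48 ± 0.27, SE; edgeR adjusted p = 0.0324). Ppp1r14a, which encodes the myosin phosphatase inhibitor CPI-17, rose 2.02-fold (edgeR adjusted p = 0.0444). Casq2, a calsequestrin gene of cardiac, slow skeletal and smooth muscle, had 22.7, 32.4 and 4.52 normalised CPM in artemisinin mice and 1.94, 2.87 and 2.21 in model mice (edgeR adjusted p = 0.0485). The Casq2 call was lost without artemisinin replicate 1 or 2 (edgeR adjusted p = 0.103 and 0.0565) and without any 1 model replicate (0.122 to 0.210). With all 6 mice it was also lost with limma-voom (adjusted p = 0.209), with edgeR without the filter on low counts (0.0559) and in the 3 limma fits on FPKM (0.0713 to 0.109). The list had 4 calls without artemisinin replicate 2, 1 without replicate 3, and 0 without artemisinin replicate 1 or any 1 model replicate, where 5 or 6 members had an unadjusted p under 0.05. Of the 24 genes 16 had a log2 fold change above 0, beside 53.2% of all genes tested. With all 6 mice 8 had an unadjusted p under 0.05, beside 24.7% of all genes. Without overlap 7 were higher and 2 lower, beside 16.3% and 17.3% of all genes. Among genes not called, Pln, Kcnma1, Chrm2 and Ednra had log2 fold changes of 2.50, 2.40, 1.54 and 0.77. Pln had 69.7, 5.32 and 13.7 normalised CPM in artemisinin mice and 5.04 to 5.36 in model mice, with overlap. Kcnma1 was low throughout, at 7.20, 5.23 and 3.26 in artemisinin mice and 0.09, 1.36 and 1.51 in model mice. The kinase genes Rock1 and Rock2, the small GTPase gene Rhoa and the calcium channel gene Cacna1c had −0.20, −0.27, −0.04 and −0.23 and were not called.

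Of 12 regulators linked to SRF and myocardin 11 passed the filter on low counts, with a median log2 fold change of 0.24. None rose in edgeR and 1 fell, beside 2.17% and 2.30% of all genes tested. An unadjusted p under 0.05 was found for 5, beside 24.7% of all genes. DESeq2 called 3, Fhl2 and Mef2c higher and Gata6 lower, beside 2286 of all 15242 genes. With limma-voom 1 was called, Gata6, beside 593 of all genes. In edgeR Fhl2 stood 2.80-fold and Mef2c 2.27-fold higher without a call. Fhl2 overlapped between the groups, at 2.49 to 7.91 normalised CPM in artemisinin mice and 1.31 to 2.66 in model mice. Mef2c had 65.4, 160 and 74.1 in artemisinin mice and 31.0 to 50.6 in model mice, highest in artemisinin replicate 2. Of the 11 genes 8 had a log2 fold change above 0, beside 53.2% of all genes. Without overlap 5 were higher and 1 lower, beside 16.3% and 17.3% of all genes. Gata6, a transcription factor gene of vascular smooth muscle and of lung epithelium, averaged 33.0 ± 5.35 normalised CPM in artemisinin mice and 60.8 ± 8.14 in model mice (SD, n = 3 each), and fell by 0.88 on the log2 scale (SE 0.17; edgeR adjusted p = 0.0378). That call was lost without artemisinin replicate 1 or 3 and without any 1 model replicate. Srf itself stood at 71.4, 78.0 and 72.4 normalised CPM in artemisinin mice and at 67.5, 64.0 and 67.3 in model mice (log2 0.16 ± 0.11, SE; edgeR adjusted p = 0.415). Myocd, the myocardin gene, had 6.17, 4.44 and 4.12 normalised CPM in artemisinin mice and 1.58, 3.24 and 0.66 in model mice, without overlap (log2 1.42 ± 0.58, SE; edgeR adjusted p = 0.187). Its relatives Mrtfa and Mrtfb had log2 fold changes of 0.24 and −0.06, and Nkx2-3, the gene below the filter, had at most 0.16 normalised CPM.

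**Figure D4:**
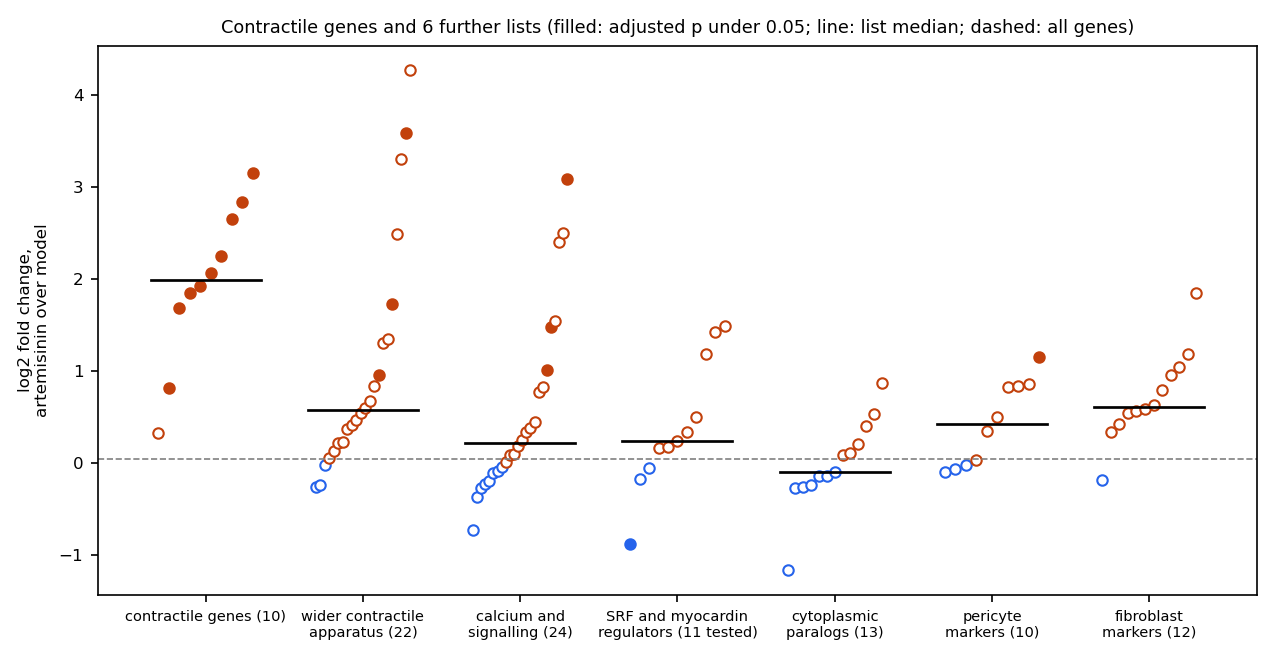
Log2 fold change of artemisinin over model for each gene of the contractile set and of 6 further lists, orange above 0 and blue below, filled where the edgeR adjusted p was under 0.05, with a line at each list's median and a dashed line at the median of all genes. Of the 10 contractile genes 9 are filled, against 3 of 22, 3 of 24, 1 of 11, 0 of 13, 1 of 10 and 0 of 12 in the other lists.

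Contractile genes are shared with other cells, so their markers were read beside them. Of 10 pericyte markers 1 rose, Cspg4, the NG2 proteoglycan gene, beside 2.17% of all genes tested. An unadjusted p under 0.05 was found for 2 of the 10, beside 24.7% of all genes. Cspg4 had 18.2 to 27.3 normalised CPM in artemisinin mice and 9.50 to 11.1 in model mice (log2 1.15 ± 0.20, SE; edgeR adjusted p = 0.0290). The Cspg4 call was lost without artemisinin replicate 1 or 3 and without any 1 model replicate. The summed pericyte level was 234 to 467 normalised CPM in artemisinin mice and 295 to 351 in model mice, which overlap, and the list median was 0.42. Of 12 fibroblast markers edgeR called 0, with 3 at an unadjusted p under 0.05, beside 24.7% of all genes tested. Their median was 0.60, and 11 of the 12 had a log2 fold change above 0, beside 53.2% of all genes. For the 12, limma-voom called 0 and DESeq2 called 3, while DESeq2 called 2286 of all 15242 genes. The summed fibroblast level was 1812 to 3758 normalised CPM in artemisinin mice and 1689 to 1886 in model mice. No marker of either list was at 0 in any library.

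Markers of striated muscle varied widely among the artemisinin mice. Of 10 cardiac muscle markers 3 rose, Actc1, Sln and Myoz2, and these were also the 3 whose groups did not overlap. Of all genes tested 2.17% were called higher and 16.3% were higher without overlap. Sln and Myoz2 were highest in artemisinin replicate 2, the library with skeletal muscle transcripts, at 61.5 and 44.9 normalised CPM. Actc1 is also among the airway smooth muscle markers below. All 10 cardiac markers had a log2 fold change above 0, as had 53.2% of all genes tested. Artemisinin replicate 2 nevertheless lay below every model mouse in Myh6, Myl7, Tnni3 and Mybpc3. Myh6, the atrial myosin heavy chain gene, had 298, 28.9 and 78.1 normalised CPM in artemisinin mice and 57.7, 75.7 and 71.7 in model mice. The 10 cardiac markers had sums of 1357, 382 and 350 normalised CPM in artemisinin replicates 1 to 3 and 127 to 175 in model mice. Without Actc1, the cardiac actin gene, the sums were 1061, 176 and 242 in artemisinin mice and 104 to 134 in model mice. The 10 skeletal muscle markers summed to 58.3, 6547 and 11.97 normalised CPM in artemisinin replicates 1 to 3 and to 4.54 to 5.37 in model mice. The filter was passed by 5 of them, with 0 calls in edgeR and 5 at an unadjusted p under 0.05, beside 24.7% of all genes. Of these 10 genes Myh4 had 0 counts in every library but artemisinin replicate 2. The part of cardiac and skeletal muscle in the contractile genes was not tested.

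Of 4 markers linked to airway smooth muscle only Actc1 passed the test, with 296, 205 and 108 normalised CPM in artemisinin mice and 23.3, 41.6 and 28.9 in model mice (log2 2.70 ± 0.40, SE; edgeR adjusted p = 0.0205). Chrm2, the muscarinic M2 receptor gene, had 20.9 to 43.0 normalised CPM in artemisinin mice and 6.50 to 14.6 in model mice (edgeR adjusted p = 0.0607), and Lgr6 had 4.001 to 11.5 in artemisinin mice and 1.52 to 3.33 in model mice (edgeR adjusted p = 0.104). Hhip had 17.1 to 30.7 in artemisinin mice and 9.78 to 19.9 in model mice, which overlap. Of 8 lung epithelium markers 3 fell, Sftpb, Sftpa1 and Epcam, and 0 rose, beside 2.30% and 2.17% of all genes tested. Among those not called, Sftpc, Nkx2-1 and Ager had log2 fold changes of −1.80, −0.50 and −0.03. Scgb1a1 and Foxj1 had 1.58 and 1.15. Without overlap 4 were lower and 1 higher, Scgb1a1, beside 17.3% and 16.3% of all genes. Scgb1a1 had 18383 to 66749 normalised CPM in artemisinin mice and 7164 to 17639 in model mice. The part of epithelial content in the contractile genes was not tested. The 5 mesothelium markers summed to 162, 131 and 17.03 normalised CPM in artemisinin mice and to 54.7 to 64.2 in model mice, with 0 called in edgeR and 0 at an unadjusted p under 0.05.

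**Figure D5:**
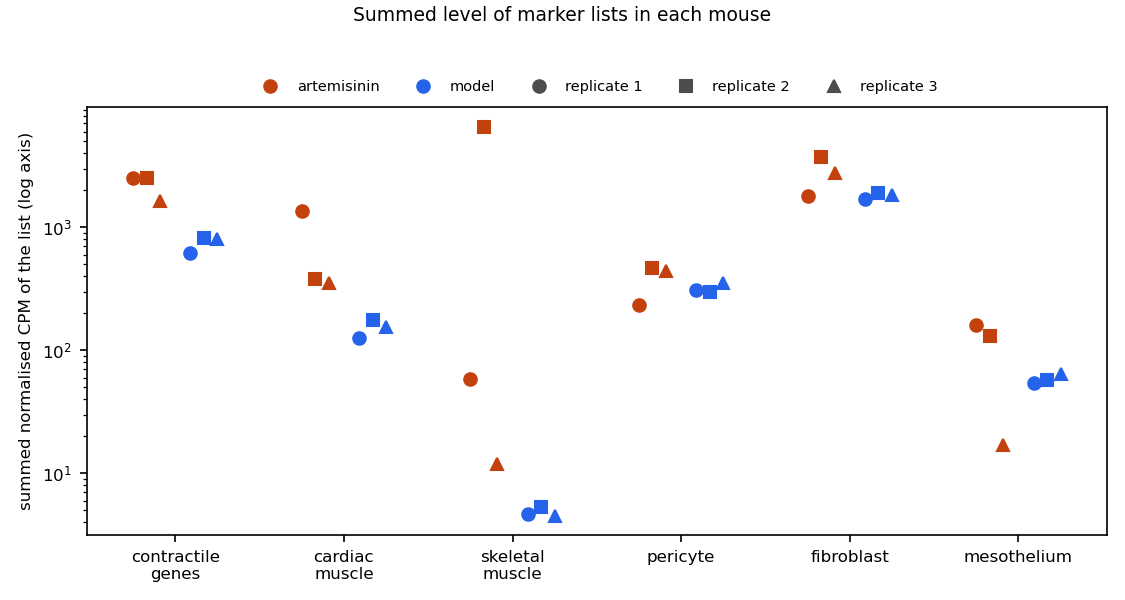
Summed normalised CPM (log axis) of the contractile genes and of marker lists of 5 other cell types in each library, artemisinin in orange and model in blue. The contractile sum is above the model in all 3 artemisinin mice, the skeletal muscle sum reaches 6547 in artemisinin replicate 2, and the pericyte sums of the groups overlap.

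The genes whose pattern over the 6 libraries came nearest to that of the contractile set were sought among 12521 genes with a mean of at least 5 normalised CPM. Likeness was the root mean squared difference between a gene's centred log2 profile and the mean centred profile of the 10 genes. Among the 10 themselves this distance ran from 0.125 for Tagln and 0.127 for Acta2 to 0.828 for Mylk. The closest other genes included Synpo2 (0.165), Mlf1 (0.188), Adgre4 (0.213) and Dmpk (0.213). Adgre4 encodes an adhesion receptor of myeloid cells, and Dmpk the myotonic dystrophy protein kinase. Dmpk had 91.1, 133 and 66.5 normalised CPM in artemisinin mice and 23.8, 35.6 and 27.5 in model mice. Since these genes were picked for this pattern, their levels are a description.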

How the data were processed

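RNA of 6 mice was sequenced from libraries made with a stranded TruSeq mRNA kit, per the labels' protocols. The genome build was GRCm38 (mm10), per the submitters' processing notes. No source used here gives the aligner, counter, annotation or strand setting. The authors deposited raw read counts per gene and a table of FPKM. The FPKM were the counts divided by library total and a value per gene (largest relative gap 3.1e-07 over 15462 genes), so they are no independent evidence.

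The count test was edgeR 4.0.16 under R 4.3.3 (filterByExpr, TMM, robust glmQLFit, glmQLFTest, Benjamini-Hochberg over 15242 genes). It was also run on simulated counts, and the outcome of that run is not given here. Those counts were drawn for each gene independently, so they did not model muscle transcripts raised together in 1 library. The SE is the log2 fold change over the root of F. TMM factors ran from 0.948 to 1.06. DESeq2 1.42.0, limma 3.58.1 on voom weights and on log2(FPKM + 0.1), other scalings and filters, and each mouse left out were alternatives. Coordinates and promoters came from RefSeq GRCm38.p6.

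The 10 genes and all lists were chosen with earlier results of these data known. The text names all 10, the 4 called genes with the smallest p and any called fall in each list, all cytoplasmic paralogs and the 5 nearest profiles, of which 1 is not reported here. Cell type markers, and other genes given only as not called, were named after their values were seen.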

Additional observations from a re-analysis of the deposited data

How the results depend on the processing

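The 9 rises of the contractile genes were called in all 9 other settings run on all 6 mice without a block, and their median log2 fold change ranged from 1.98 to 2.12 there. Scaling by library totals moved the median of all genes from 0.04 to 0.15 and the split of 331 higher against 351 lower to 464 against 319. With the replicate number as a block, edgeR called 2 of the 10 genes (Acta2 and Lmod1) and 128 genes in all, against 682 without it, 1 of the wider contractile list, and 0 of the calcium, SRF and pericyte lists. Same-numbered libraries did not deviate together (correlations 0.0015, −0.085 and 0.030), so the numbers were not taken as pairs. DESeq2 called 2286 genes in all, 11 of the wider list, 7 of the calcium list, 3 of the SRF list, 2 cytoplasmic paralogs and 3 fibroblast markers. Library totals gave 6 of the wider list and 1 fibroblast marker. On log2(FPKM + 0.1) without a filter limma called 0 of the calcium, SRF and pericyte lists, and on log2(FPKM + 1) 0 pericyte markers (Cspg4 adjusted p = 0.0518). The unfiltered limma fit also lost Synpo2, Kcnmb1, Ppp1r14a, Gata6 and Cspg4 (adjusted p = 0.0511 to 0.0732). With 1 mouse left out, calls ranged from 0 to 9 for the contractile genes, 17 to 1383 for all genes, 0 to 8 for the wider list, 0 to 4 for the calcium list, and 0 to 1 for the SRF list, paralogs, pericytes and fibroblasts, and the contractile median from 1.84 to 2.17. Each such fit has fewer mice. The sign turned for Cnn3 (0.00094) with library totals, and for Myh9 (−0.40 to 0.15), Myl12a (−0.45 to 0.0079) and Myh14 (−0.37 to 0.034) with 1 mouse left out. The positive values came without artemisinin replicate 1 (Myh9, Myl12a) or 3 (Myh14). The cause of these changes was not tested.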
